A study of Mus musculus with 2 samples.

Results

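The genes described here are 10 genes of MHC class I antigen presentation, taken by symbol from the 18159 genes of an mRNA-seq table of the jejunal tunica muscularis (the smooth muscle layers around the small intestine). They are *Gm11127*, *H2-K1*, *H2-D1*, *H2-T23*, *H2-M3*, *H2-Q4*, *B2m*, *Tap1*, *Tap2* and *Tapbp*, and all 10 were listed with a value above 0 in each library. These genes were chosen on the values reported below, so the ratios are a description of the set and no test of it. Both libraries came from C57BL/6 mice aged 15 days (P15) of a cross between mice with the transgene Tg(Myh11-cre,-EGFP)2Mik, in which the *Myh11* promoter drives Cre and eGFP, and Dnmt1lox/lox, in which *Dnmt1*, the maintenance DNA methyltransferase, carries lox sites. In *Dnmt1*-KO mice *Dnmt1* is deleted in smooth muscle cells (SMC), and *Dnmt1*-WT mice, which carry smMHC Cre-eGFP too according to the study, keep it. The labels give the same strain for both groups. The free-text description of each sample names the knockout, and the genotype label was followed here. There was 1 library per genotype. RNA of male and female mice was used for each genotype, and how animals were combined is not given in the sources used here. With no replicate, no spread and no test exist, and every ratio below compares one library with the other. The whole muscle wall was sequenced, so cells other than SMC, in which Cre is not active, are in the tissue.

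MHC class I molecules sit on the surface of nearly all nucleated cells and show CD8 T cells short peptides from proteins made inside the cell. Each consists of a heavy chain, encoded in the mouse by the H2 genes, and the light chain beta-2 microglobulin (*B2m*). Peptides cut by the proteasome are carried into the endoplasmic reticulum by the transporter Tap1/Tap2 and loaded with the help of tapasin (*Tapbp*). Interferons raise the expression of most of these genes, and leukocytes and endothelium carry more class I than muscle does.

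*Dnmt1* itself stood at 11.58 FPKM (fragments mapped to a gene, scaled by the length of its transcript and by the depth of the library) in *Dnmt1*-WT and 7.58 FPKM in *Dnmt1*-KO, a ratio of 0.655. The gene was lower in the library labelled *Dnmt1*-KO but far from 0; the value covers the whole gene, deleted part or not, and all cells of the tissue. The 2 libraries had 16632 and 17055 genes above 0, and the lowest level above 0 was 0.03 FPKM in each. Read counts behind each value are unknown, and no interval was given for that reason. The 6 smooth muscle markers had a summed level of 12615 FPKM in *Dnmt1*-WT and 8820 FPKM in *Dnmt1*-KO, so both libraries were rich in muscle RNA.

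Each of the 10 class I genes had more RNA in *Dnmt1*-KO than in *Dnmt1*-WT, and 8 of 10 at least doubled, the exceptions being *Tap2* and *Tapbp*. Their median ratio was 4.31, against 1.0035 over all 16102 genes above 0 in both libraries, of which 8106 had a ratio above 1. Of those 16102 genes 11.8% at least doubled, and among the 7054 that also reached 10 FPKM in 1 library 5.20% did; since these contrasts chose the 10 genes, nothing is read from that difference. *Gm11127* had the highest ratio of all 16102 genes. *Tapbp* and *Tap2* ranked 3136 and 3113.

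**Figure D1:**
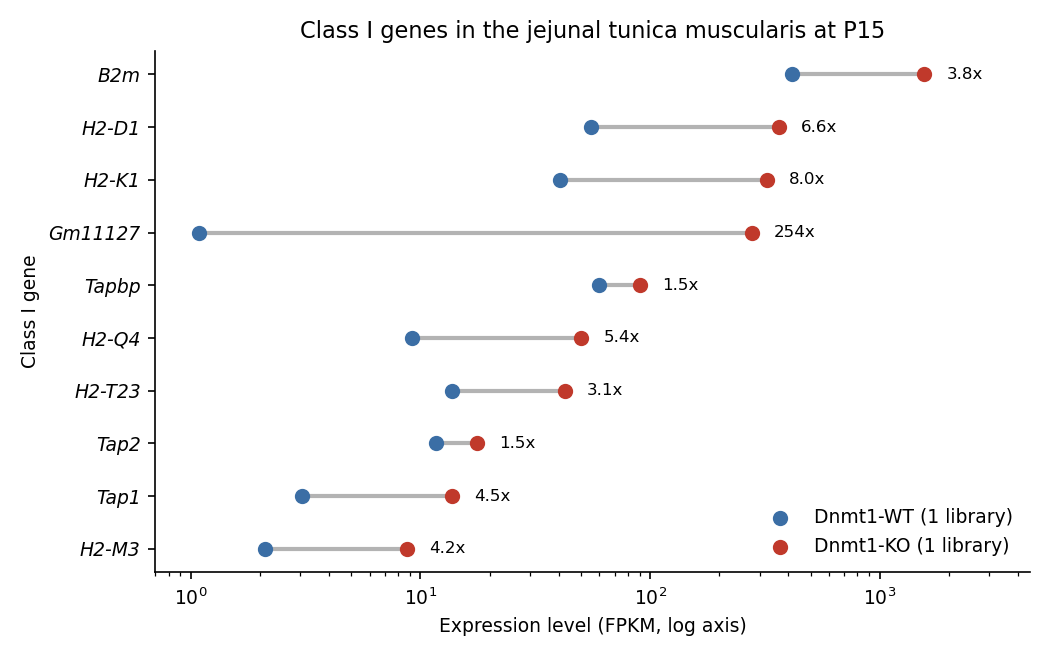
Level of each of the 10 class I genes in FPKM (log axis) in the *Dnmt1*-WT library (blue) and the *Dnmt1*-KO library (red), 1 library each, ordered by the *Dnmt1*-KO level, with the ratio beside each line. All lines run to the right, from 1.501-fold for *Tapbp* to 254-fold for *Gm11127*.

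The classical heavy chains *H2-K1* and *H2-D1*, which present peptides to CD8 T cells in C57BL/6 mice, were the most abundant heavy chains of the set in *Dnmt1*-WT and in *Dnmt1*-KO. *H2-K1* (ENSMUSG00000061232.16, chr17:33996017-34000347, minus strand, GRCm38) measured 40.39 FPKM in *Dnmt1*-WT and 322.91 FPKM in *Dnmt1*-KO, a ratio of 7.99. *H2-D1* (ENSMUSG00000073411.11, chr17:35262730-35267499, plus strand) measured 55.39 FPKM and 363.54 FPKM, a ratio of 6.56. *H2-D1* was the higher of the pair in both libraries. Their sum was 95.78 FPKM and 686.45 FPKM, a ratio of 7.17.

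The non-classical heavy chains stood lower. *H2-T23*, which encodes Qa-1, the ligand of the CD94/NKG2 receptors, lay at 13.74 FPKM in *Dnmt1*-WT and 42.48 FPKM in *Dnmt1*-KO, a ratio of 3.09. *H2-Q4*, a gene of the Qa cluster, went from 9.18 FPKM to 50.03 FPKM, a ratio of 5.45. *H2-M3*, which presents N-formylated peptides, had the lowest *Dnmt1*-KO level of the 10 genes, 8.74 FPKM against 2.10 FPKM in *Dnmt1*-WT, a ratio of 4.16. In order of level, *H2-Q4* lay below *H2-T23* in *Dnmt1*-WT and above it in *Dnmt1*-KO.

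*B2m* (ENSMUSG00000060802.8, chr2:122147686-122153083, plus strand) is the only one of the 10 genes outside chromosome 17 and was the most abundant, with 415.79 FPKM in *Dnmt1*-WT and 1561.30 FPKM in *Dnmt1*-KO. It was gene 147 by level in the first library and gene 22 in the second. Its ratio of 3.76 was below that of *H2-K1* and *H2-D1*. The 5 heavy chains other than *Gm11127* summed to 120.80 FPKM in *Dnmt1*-WT and 787.70 FPKM in *Dnmt1*-KO, which is 0.291 and 0.505 of the *B2m* level. With all 24 listed H2 class I heavy chains other than *Gm11127* the sums were 143.26 and 900.48 FPKM, or 0.345 and 0.577 of *B2m*. Light chain RNA exceeded heavy chain RNA per length in each library by these sums, and by a smaller factor in *Dnmt1*-KO.

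The peptide transporter genes differed in ratio. *Tap1* measured 3.06 FPKM in *Dnmt1*-WT and 13.65 FPKM in *Dnmt1*-KO, a ratio of 4.46, while its partner *Tap2* measured 11.67 FPKM and 17.62 FPKM, a ratio of 1.51. *Tap2* was the higher of the pair in both libraries, and the gap narrowed in *Dnmt1*-KO. *Tapbp*, the chaperone that bridges the transporter and the empty heavy chain, went from 60.08 FPKM to 90.16 FPKM, a ratio of 1.501. The table also gives the number of transcript variants found per library. That number was equal in both libraries for all 10 genes (3 for *H2-M3*, 2 for *Tap1* and *Tapbp*, 1 for the other genes), as it was for 73.9% of all genes above 0 in both.

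**Figure D2:**
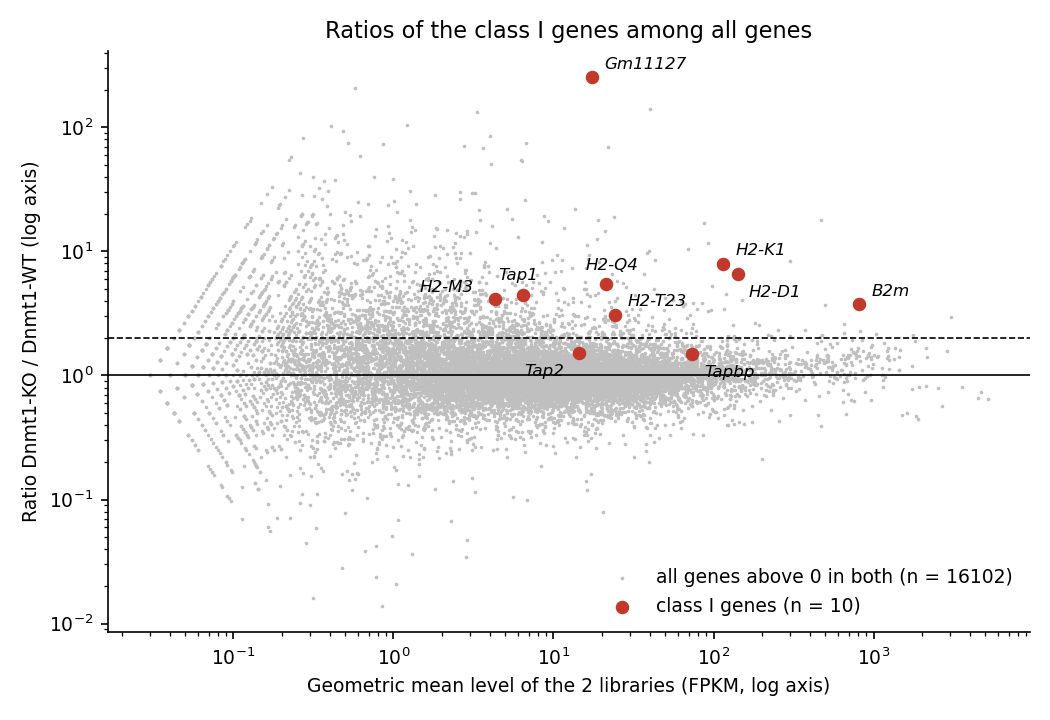
Ratio of *Dnmt1*-KO to *Dnmt1*-WT against the geometric mean level of the 2 libraries in FPKM (both axes log) for all 16102 genes above 0 in both (grey) and the 10 class I genes (red). The solid line marks a ratio of 1 and the dashed line a ratio of 2. *Gm11127* is the topmost point at a ratio of 254, and *Tap2* and *Tapbp* lie under the dashed line.

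*Gm11127* (ENSMUSG00000079492.2, chr17:36055816-36058371, minus strand, 6 exons) is annotated as a protein-coding class I-like gene of the H2-T region. It measured 1.09 FPKM in *Dnmt1*-WT, the lowest of the 10 genes, and 277.16 FPKM in *Dnmt1*-KO, where only *B2m*, *H2-D1* and *H2-K1* of the 10 were higher. The ratio was 254 and, with 1 FPKM added to both values, 133. By level the gene moved from place 12907 to place 241 in the table. It made up 26.0% of the summed level of the 6 heavy chains of the set in *Dnmt1*-KO.

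The listed genes next to *Gm11127* stood under 10 FPKM in both libraries. The nearest listed genes on the one side were *H2-T22*, with 4.26 FPKM in *Dnmt1*-WT and 7.75 FPKM in *Dnmt1*-KO, and *Gm6034*, a gene annotated on the opposite strand across the whole of *Gm11127*, listed at 0 and 0.05 FPKM. On the other side *H2-Bl* was at 0.23 FPKM and 0, and *Gm7030* at 0.15 FPKM and 0. Beyond *H2-T22* lies *H2-T23*, described above, at 13.74 and 42.48 FPKM. *Gm7030* is the class I gene most like *Gm11127*, with an alignment of 913 bases at 97.9% identity that covers bases 1 to 913 of the 1344-base *Gm11127* transcript and an exact stretch of 302 bases. Without strand information reads of *Gm6034* and *Gm11127* could not be told apart where they overlap.

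Because class I heavy chains are near copies of each other, a short read can match several of them. The comparison below shows this in the coding sequence of the alpha-3 domain, the part that binds CD8. It prints the longest stretch that *H2-K1* and *H2-D1* share without a difference, 91 bases, from GENCODE M21 transcripts, beside the aligned bases of the other heavy chains, with bases that differ from *H2-K1* in capitals.
H2-K1: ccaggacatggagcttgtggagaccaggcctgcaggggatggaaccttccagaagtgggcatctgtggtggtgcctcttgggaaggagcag
H2-D1: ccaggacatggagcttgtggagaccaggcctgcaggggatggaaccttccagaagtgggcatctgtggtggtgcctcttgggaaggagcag
H2-Q4: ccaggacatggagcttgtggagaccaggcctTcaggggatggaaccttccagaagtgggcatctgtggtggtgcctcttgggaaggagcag
H2-T23: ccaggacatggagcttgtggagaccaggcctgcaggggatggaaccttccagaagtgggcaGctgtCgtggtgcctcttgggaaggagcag
H2-M3: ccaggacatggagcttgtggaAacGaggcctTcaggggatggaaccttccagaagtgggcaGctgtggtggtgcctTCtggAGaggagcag
Gm11127: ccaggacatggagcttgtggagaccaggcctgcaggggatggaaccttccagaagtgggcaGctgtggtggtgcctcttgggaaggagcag
*H2-Q4* and *Gm11127* each differed from *H2-K1* at 1 base, *H2-T23* at 2 bases and *H2-M3* at 8 bases. Over the whole coding sequence *H2-K1* was 91.5% identical to *H2-D1*, 90.2% to *H2-Q4*, 82.8% to *H2-T23*, 77.2% to *Gm11127* and 72.9% to *H2-M3* at aligned bases.

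To see how much of each transcript is its own, every 50-base window of the longest coding transcript was looked up in all annotated transcripts of other genes. *B2m* shared none of its windows. For *H2-M3*, *Tap2*, *Tap1* and *Tapbp* 99.4%, 99.3%, 99.1% and 98.0% of windows were found in no other gene. *H2-K1* had 91.2% and *H2-D1* 85.7%, *H2-Q4* 75.7% and *H2-T23* 71.2%. *Gm11127* had 36.2%, and with windows of 100 bases, a length added after the data were seen, 57.3%. How reads matching several genes were counted is not given in the sources used here, so the levels of the heavy chains, and above all of *Gm11127*, are uncertain to that degree.

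The shared windows of *Gm11127* fell into separate blocks. Up to base 1033 the shared windows were held mostly by other class I genes, as in the alpha-3 stretch above. From base 1034 to its end at base 1344 the transcript is a repeated stretch of 311 bases, 23.1% of its length, and at most 20 other genes held the same window. That tail lies in the last exon (chr17:36055816-36056146) and holds the last 99 coding bases, or 33 codons, the stop codon and the 209 bases after it. *Gm7030* has no alignment there. The tail reads as the long terminal repeat of an intracisternal A-particle, a family of endogenous retroviruses known to be silenced by DNA methylation; that name comes from general knowledge of the sequence, and no repeat annotation was used.

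**Figure D3:**
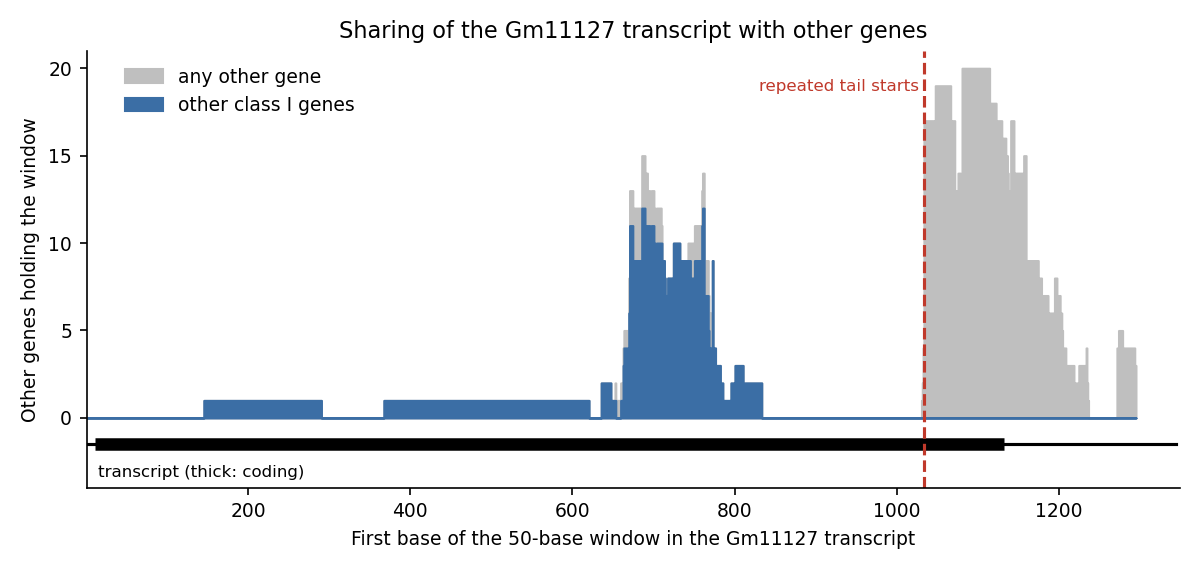
Number of other genes that hold each 50-base window of the *Gm11127* transcript, by the first base of the window, for all other genes (grey) and for class I genes (blue), with the coding part as the thick bar under the axis. Sharing with class I genes ends before the tail that starts at base 1034 (dashed line), where up to 20 other genes hold the same window.

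Other annotated genes carry a like tail. An alignment of at least 200 bases to it was found in the transcripts of 85 other genes, 45 on the same strand as the transcript and 40 on the opposite strand. Of the same-strand genes 17 were above 0 FPKM in both libraries, and 9 of them at least doubled and 0 had a ratio of 0.5 or less, with a median ratio of 2.97. Of the opposite-strand genes 22 were above 0 in both, 3 at least doubled and 1 had a ratio of 0.5 or less, with a median ratio of 0.967. The highest of these was *Gm4262*, with a 97.8% identical tail, at 0.59 and 17.59 FPKM, a ratio of 29.8. Over all genes 11.8% at least doubled and 4.98% had a ratio of 0.5 or less. *A430078G23Rik*, whose tail was 92.5% identical, measured 3.37 FPKM in *Dnmt1*-WT and 472.04 FPKM in *Dnmt1*-KO, a ratio of 140. *Zfp575* went from 1.30 to 23.61 FPKM, and *Trpc6*, a cation channel gene with a 98.4% identical tail, from 3.91 to 19.93 FPKM. Other carriers had ratios near 1, such as *Zfp706*, which shares 219 exact bases of the tail and had 31.56 and 37.45 FPKM. Genes sharing the tail may share reads with *Gm11127*, so these levels are not independent of each other. These genes were looked for after the value of *Gm11127* was known, and the part of the tail in its level was not tested.

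The other class I heavy chain genes covered a wide range of ratios. Of 48 symbols 35 were listed and 24 were above 0 in both libraries, of which 7 at least doubled (29.2% against 11.8% of all genes) and 1 had a ratio of 0.5 or less, with a median ratio of 1.63. Of the listed genes 4 reached 10 FPKM, and 3 of these at least doubled, against 5.20% of all genes at that level. The count of 7 became 3 with 1 FPKM required in both libraries and 12 with a pseudocount of 0.01. With that pseudocount genes at 0 in 1 library were counted too, and 5 listed genes were above 0 only in *Dnmt1*-KO. The Qa-2 gene *H2-Q7* went from 0.86 to 46.42 FPKM, a ratio of 54.0, and *H2-Q8* from 1.10 to 24.18 FPKM, a ratio of 21.98. The T-region gene *H2-T9* had 8.15 and 17.98 FPKM, and *Fcgrt*, the neonatal Fc receptor, 73.79 and 103.64 FPKM, a ratio of 1.405. *H2-Q5*, named after its values were seen, went from 0.23 to 7.04 FPKM. Outside the H2 region *Procr*, the endothelial protein C receptor, at 1.07 and 7.53 FPKM, and the NKG2D ligand *Ulbp1*, at 0.49 and 2.11 FPKM, also at least doubled and were likewise named after their values were seen. Reads of *H2-Q7* and *H2-Q8* may be split with near copies and with *H2-D1*, which shares 123 of its windows with *H2-Q7*.

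Of 9 proteasome genes tied to class I 3 at least doubled, 33.3% against 11.8% of all genes. All 9 had ratios above 1, as did 8106 of all 16102 genes above 0 in both libraries. The 3 were the interferon-inducible catalytic subunits of the immunoproteasome. *Psmb8* measured 5.87 and 43.13 FPKM, a ratio of 7.35, *Psmb9* 3.43 and 18.98 FPKM, a ratio of 5.53, and *Psmb10* 31.05 and 76.18 FPKM, a ratio of 2.45. The interferon-inducible activator subunits *Psme1* and *Psme2*, added here after their values were seen, lay between at 82.69 and 144.10 FPKM, a ratio of 1.74, and 58.13 and 83.48 FPKM, a ratio of 1.44. The constitutive counterparts *Psmb7*, *Psmb6* and *Psmb5* had ratios of 1.004, 1.07 and 1.16, and the activator subunit *Psme3* 1.04. The starts of *Psmb9* and *Tap1* lie 211 bases apart on opposite strands with overlapping ends, where reads without strand information cannot be told apart, and the ratios of that pair were 5.53 and 4.46. *Psmb8* ends 2073 bases before *Tap2* on the same strand, and their ratios were 7.35 and 1.51.

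Of the 11 other loading and trimming genes 0 at least doubled, where 11.8% of all genes did, and the median ratio was 0.976. A ratio above 1 was found for 4 of 11, and for 8106 of all 16102 genes. Among the 10 genes at 10 FPKM or more in 1 library the highest ratios were those of *Sec61b* at 68.85 and 118.86 FPKM and *Sec61a1* at 55.17 and 69.78 FPKM, subunits of the endoplasmic reticulum translocon, and *Uggt1*, a folding sensor, at 10.72 and 11.19 FPKM. The lowest of these were the oxidase *Ero1l* at 15.57 and 10.36 FPKM, the aminopeptidase *Lnpep* at 16.51 and 11.37 FPKM, and the trimming peptidase *Erap1* at 15.16 and 14.33 FPKM.

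Among 24 class I regulators above 0 in both libraries 3 at least doubled, 12.5% against 11.8% of all genes, and the median ratio was 0.994. The count of 3 became 1 after division by the FPKM sum, 1 with a pseudocount of 1 and 1 at 10 FPKM in 1 library. Among the genes at 10 FPKM with the highest ratios were the interferon-responsive factors *Irf1*, with 12.04 and 21.44 FPKM, and *Stat2*, with 6.82 and 11.98 FPKM. The lowest ratios among genes at 10 FPKM or more were those of the kinase *Jak2*, 14.41 and 8.78 FPKM, and of the promoter-binding subunits *Rfxap*, 12.48 and 8.41 FPKM, and *Nfya*, 13.19 and 10.19 FPKM. *Nlrc5*, the class I transactivator, named after its values were seen, was low in both libraries at 0.12 and 1.54 FPKM. *Ifng*, the gene of interferon gamma, was listed at 0 and 0.10 FPKM. Of 13 listed genes of class I receptors, CD8 and the signalling chain *Cd247*, 9 were at 0 in *Dnmt1*-WT and none reached 10 FPKM. The 4 above 0 in both at least doubled, *Cd247* among them, led by *Lilrb4* at 0.33 and 2.60 FPKM. That count became 2 with a pseudocount of 1, 13 with a pseudocount of 0.01 and 1 with 1 FPKM required in both libraries. With a pseudocount the 9 genes at 0 in *Dnmt1*-WT were counted too.

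**Figure D4:**
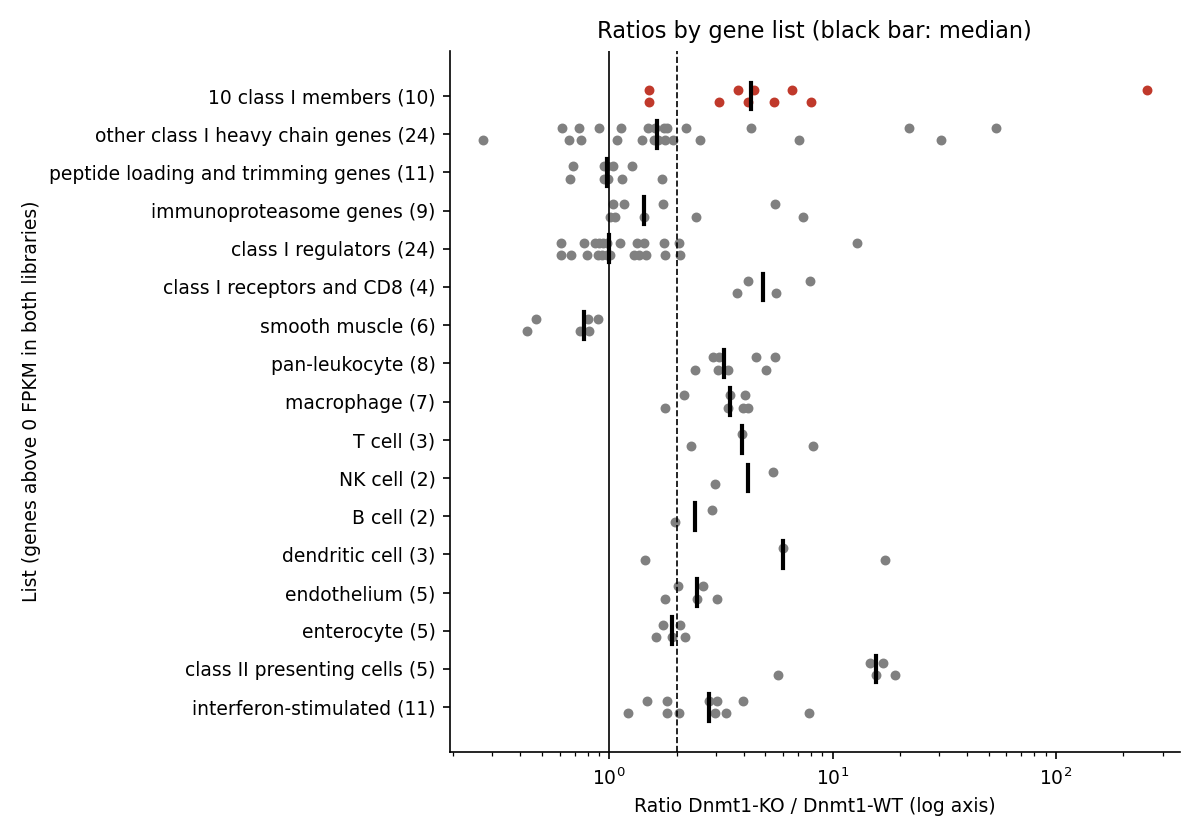
Ratio of *Dnmt1*-KO to *Dnmt1*-WT (log axis) of each gene above 0 FPKM in both libraries, by list, with the number of genes in brackets and the median as a black bar. The class I genes (red) have a median of 4.31, the pan-leukocyte markers 3.25, the class II genes 15.6 and the smooth muscle markers 0.772.

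Markers of other cells moved with the class I genes. For the counts that follow, 11.8% of all genes at least doubled. All 8 pan-leukocyte markers did, with ratios of 2.43 to 5.54 and a summed level of 57.8 FPKM in *Dnmt1*-WT and 241.8 FPKM in *Dnmt1*-KO; *Ptprc*, which encodes CD45, had 0.80 and 2.71 FPKM. Of 7 listed macrophage markers 6 at least doubled, the sums being 138.6 and 492.9 FPKM, with *C1qa* at 31.57 and 125.26 FPKM. All 5 class II genes at least doubled, from a sum of 35.2 to 588.6 FPKM, with *Cd74* at 21.19 and 357.75 FPKM and *H2-Ab1* at 5.46 and 103.59 FPKM. Of 5 endothelial markers 4 at least doubled, the sums being 43.8 and 101.1 FPKM, and of 5 enterocyte markers 2 did, the sums being 275.1 and 567.2 FPKM. T cell markers summed to 1.06 and 5.46 FPKM, with *Cd3e*, *Cd3d*, *Cd8a* and *Cd8b1* at 0 in *Dnmt1*-WT and at most 0.62 FPKM in *Dnmt1*-KO. NK cell, B cell and dendritic cell markers summed to 0.73, 1.07 and 2.07 FPKM in *Dnmt1*-WT and 3.73, 2.70 and 5.36 FPKM in *Dnmt1*-KO, with *Ncr1*, *Klrb1c*, *Klrd1*, *Prf1*, *Xcr1* and *Ccr7* among those at 0 in *Dnmt1*-WT.

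Of 11 interferon-stimulated genes above 0 in both libraries 7 at least doubled, 63.6% against 11.8% of all genes, with sums over the 12 genes of 71.1 and 162.4 FPKM; *Iigp1* had 1.31 and 10.24 FPKM and *Isg15* 3.62 and 12.10 FPKM. All 6 smooth muscle markers were lower in *Dnmt1*-KO, where 8106 of all 16102 genes had a ratio above 1. Their ratios ran from 0.427 for *Smtn* to 0.893 for *Cnn1*, with *Myh11* at 2685 and 1256 FPKM and *Acta2* at 5408 and 4016 FPKM. The ratios of *H2-K1*, *H2-D1* and *Gm11127* lay above the highest pan-leukocyte ratio of 5.54, those of *H2-Q4*, *Tap1*, *H2-M3*, *B2m* and *H2-T23* lay inside the leukocyte range, and those of *Tap2* and *Tapbp* below it. The 5 class II genes had ratios of 5.67 to 18.97, a range that holds *H2-K1* and *H2-D1* and lies below *Gm11127*. In bulk tissue a change in the number of cells of a type and a change of RNA per cell cannot be told apart, and the part of these cells in the class I levels was not tested.

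Of the 10 genes 9 lie on chromosome 17 in the H2 region, which between *Tapbp* and *H2-M3* holds 145 other listed genes. Of these 128 were above 0 in both libraries, and 33 at least doubled, 25.8% against 11.8% of all genes, with a median ratio of 1.18. The count fell to 20 with a pseudocount of 1 and to 19 with 1 FPKM required in both libraries. With 10 FPKM required in 1 library it was 15, out of only 63 genes at that level. Of all genes at that level 5.20% at least doubled. The share of all genes under the other settings is not given here. Without the listed class I, loading and proteasome genes and without the H2 class II genes, a selection made after the values were seen, 20 of 107 did, 18.7%, and the median was 1.15. In the order of the genes *Psmb9*, *Tap1*, *Psmb8* and *Tap2*, which follow each other, the ratios were 5.53, 4.46, 7.35 and 1.51.

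**Figure D5:**
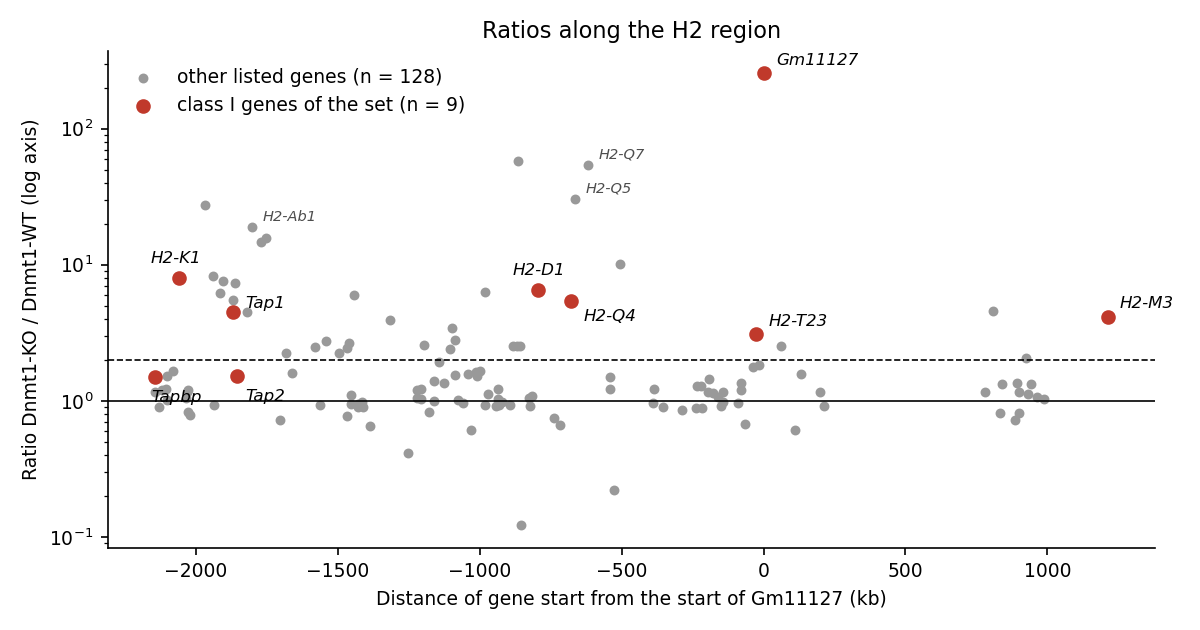
Ratio of *Dnmt1*-KO to *Dnmt1*-WT (log axis) of genes of the H2 region above 0 FPKM in both libraries, by distance of the gene start from that of *Gm11127* in kb, with the class I genes of the set in red and 128 other listed genes in grey. *Gm11127* stands at 254 with *H2-T22* and *H2-T23* beside it at 1.82 and 3.09, and *H2-Q7* at 54.0 is the highest other class I gene.

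The promoters were compared by the letters of known class I control elements in RefSeq windows (GRCm38.p6) of 250 bases before to 50 after the start, which were found for 9 genes (not *Tap2*), on both strands. One form of the core of the interferon-stimulated response element, GAAANNGAA, was in 3 of 9 windows (*B2m*, *H2-T23*, *Gm11127*) and in 8.56% of all 32851 windows of the same length. The windows of *H2-K1*, *H2-D1*, *H2-Q4* and *H2-M3* held tttcacttc, like letters that this pattern does not match on either strand. Other forms were not searched, so a window without a match is not shown to lack the element. The kappa B letters GGGNNTTCC were in 3 of 9 (*H2-K1*, *H2-D1*, *H2-Q4*) and in 5.82% of all. The X2 core TGACG was in 6 of 9 and in 20.8% of all, and the Y box core ATTGG in 9 of 9 and in 37.4% of all. No matches overlapped in the 9 windows. In 4 of the 9 the X2 and Y letters stood with exactly 20 bases between them, an arrangement noticed after the windows had been read and present in 31 of all 32851 windows, 0.0944%. The stretches are printed to show that spacing, with all X2 and Y letters on either strand in capitals. *H2-M3* has a further Y box core, on the other strand, between the spaced pair.
B2m: TGACGacctccggatctgagtccggATTGG
H2-D1: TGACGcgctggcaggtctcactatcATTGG
H2-K1: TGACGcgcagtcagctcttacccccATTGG
H2-M3: TGACGcttctCCAATtcccattctaATTGG
They lie at chr2:122147609-122147638 for *B2m*, chr17:35262993-35263022 for *H2-D1*, chr17:34000359-34000388 for *H2-K1* (minus strand) and chr17:37270188-37270217 for *H2-M3*. The ratios of these 4 genes were 3.76, 6.56, 7.99 and 4.16. *H2-K1* and *H2-D1* also had the kappa B letters at the same distance before the X2 letters, as the 250 bases before the start of *H2-K1* (chr17:34000348-34000597, minus strand) show, with kappa B, X2 and Y letters in capitals.
H2-K1: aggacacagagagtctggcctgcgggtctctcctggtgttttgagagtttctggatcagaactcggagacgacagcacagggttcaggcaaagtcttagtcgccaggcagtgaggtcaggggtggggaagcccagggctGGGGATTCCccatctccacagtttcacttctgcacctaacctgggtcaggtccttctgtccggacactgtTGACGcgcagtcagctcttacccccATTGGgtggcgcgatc
The window of *Gm11127* held the letters GAAANNGAA and 1 Y box core but neither kappa B nor X2 letters. It had 2 CpG dinucleotides, the fewest of the 9, against 14 in *H2-K1* and *B2m*, 19 in *H2-D1* and a median of 7 over all windows. *H2-T23* and *Tapbp*, also without X2 and kappa B letters, had 5 and 11 CpG and ratios of 3.09 and 1.501. These matches describe letters only; binding and methylation were not analysed here.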

How the data were processed

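mRNA-seq was made from total RNA of jejunal tunica muscularis (TruSeq RNA libraries). The submitters' processing notes name TopHat 1.4.1, Cufflinks 2.0.2 and mm10, with no role stated; the handling of reads matching several genes is not given in the sources used here. The authors deposited 1 table of FPKM per gene and library for 18159 symbols, with the number of transcript variants found per gene (a whole number deposited by the authors) and a column of the authors' own ratios that was not used. There were 0 sample columns without a label. Depth per gene is unknown, so no interval was given.

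Ratios of the deposited FPKM were computed for genes above 0 in both libraries, and log2 ratios with a pseudocount of 0.1. Counts under an alternative pseudocount took all genes above 0 in at least 1 library. At least doubled means a ratio of 2 or more. With 1 library per genotype no test was run. The counting script was tested on simulated data. The 10 genes and all gene, marker and motif lists were chosen with earlier results of these data known. Named genes were the 10, *Dnmt1*, the markers, the genes next to *Gm11127*, those sharing the longest exact stretch with it, and per list those at 10 FPKM or more in 1 library (where over 6, the 3 highest and 3 lowest ratios); 2 genes that this rule names are not reported here. Coordinates and transcripts were those of GENCODE M21 (17204 symbols matched), promoters those of RefSeq (GRCm38.p6). Transcripts were aligned with BLAST 2.17.0 (e-value 1e-10). Analysis used Python 3.11.15 with pandas 2.3.3, numpy 2.4.6 and biopython 1.88. Alternatives were 4 scalings, 2 pseudocounts, 2 level filters and leaving out *Gm11127*.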

Additional observations from a re-analysis of the deposited data

How the results depend on the processing

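With 1 library per genotype, a count or ratio within 1.5-fold of its main value was taken as unmoved. The number of class I genes at least doubled and the median log2 ratio of the 10 genes, 2.06, stayed within that limit under all alternatives run. Of the 10 single ratios only that of *Gm11127* moved, to 133 with a pseudocount of 1. Only the pseudocounts could move a single ratio past the limit. The level filters leave it as it is, and the scalings multiply every *Dnmt1*-KO value by 1 factor, from 0.932 to 1.045. The other class I heavy chain genes at least doubled numbered 7, and 12 with a pseudocount of 0.01. They numbered 3 with 1 FPKM required in both libraries and 3 of 4 with 10 FPKM in 1 library. The regulators numbered 3, and 1 after division by the FPKM sum, 1 with a pseudocount of 1 and 1 of 14 at 10 FPKM in 1 library. The receptors numbered 4, and 2 with a pseudocount of 1, 13 with 0.01 and 1 with 1 FPKM in both. The H2 region genes numbered 33, and 20 with a pseudocount of 1, 19 with 1 FPKM in both and 15 of 63 at 10 FPKM in 1 library. Of all genes at 10 FPKM in 1 library 5.20% at least doubled. Counts with a pseudocount took in genes above 0 in only 1 library, so they cover more genes. Above 0 only in *Dnmt1*-KO were 5 of the other heavy chain genes and 9 receptor genes. With 0.01 added, even the lowest level above 0, 0.03 FPKM, passes a ratio of 2 against 0. What else moved the counts was not tested. No receptor gene reached 10 FPKM, so that count could not be had there. The genes with the tail of *Gm11127* on the same strand that at least doubled numbered 9 of 19 at 100 aligned bases, where 1 had a ratio of 0.5 or less, and 9 of 17 with 0 such genes at 200 and at 250, the other lengths being added after the data were seen. Animal-to-animal spread and depth limit all values, those under 1 FPKM included. The counting of shared reads limits genes that share windows with others. *Gm11127* had the lowest share of windows found in no other gene among the 10 genes, 36.2%.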
